A study of Arabidopsis thaliana with 4 samples.

Results

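The genes described here are 10 loci of flavonoid synthesis in Arabidopsis thaliana, taken by locus from the tables of 4 RNA-seq libraries of the stem base. They are 7 enzyme genes (CHS, CHI, F3H, F3'H, FLS1, DFR and LDOX) and 3 genes for MYB transcription factors (PAP1, MYB12 and MYB111), out of 33316 loci in all. All 10 were found in every table, and all 10 passed the filter on low counts among 19024 genes that did. Wild-type plants of accession Col-0 (WT) were compared with the mutant mol1-1 in the same background, with 2 libraries per genotype and no agent applied. MOL1 encodes a receptor-like kinase known to restrain stem thickening by the cambium, and the comparison asks how its loss alters the transcripts of the stem. Plants stood in soil for 3 weeks under 8 h of light and then under 16 h of light to bring on flowering, and 1 cm of stem above the rosette was taken when they were 15 to 20 cm tall. The labels do not say whether the replicates were separate pools of plants, so p-values measure only the spread between these libraries. MOL1 itself had 938 and 825 exon reads in the WT libraries against 342 and 264 in the mutant. A single mutant allele was used.

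Flavonoids are made from phenylpropanoid precursors by a chain of enzymes. Chalcone synthase (CHS) makes the first flavonoid skeleton, chalcone isomerase (CHI) closes its ring, and the hydroxylases F3H and F3'H add hydroxyl groups. The chain then divides: flavonol synthase (FLS1) leads to flavonols, which screen ultraviolet light, whereas dihydroflavonol reductase (DFR) and leucoanthocyanidin dioxygenase (LDOX) lead to the red anthocyanin pigments. MYB12 and MYB111 are known to activate the early genes and FLS1, and PAP1 is known to activate the late anthocyanin genes together with a bHLH partner such as TT8. Anthocyanins often colour the base of the Arabidopsis stem.

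The sequences shown here are the 250 bases upstream of the annotated gene start, for the members that hold a G-box (CACGTG, in capitals, the letters bound by many bZIP and bHLH factors) and for LDOX and FLS1, which hold none and which had the widest and the narrowest spread between libraries. They are from the RefSeq annotation of TAIR10.1 and read 5′ to 3′ on the strand of the gene. The windows lie at chr5:4488226-4488475 for CHS (plus strand), chr3:19024942-19025191 for F3H (plus), chr5:17166033-17166282 for DFR (minus), chr2:19476076-19476325 for MYB12 (plus), chr4:12006210-12006459 for LDOX (minus) and chr5:2803583-2803832 for FLS1 (plus).
CHS: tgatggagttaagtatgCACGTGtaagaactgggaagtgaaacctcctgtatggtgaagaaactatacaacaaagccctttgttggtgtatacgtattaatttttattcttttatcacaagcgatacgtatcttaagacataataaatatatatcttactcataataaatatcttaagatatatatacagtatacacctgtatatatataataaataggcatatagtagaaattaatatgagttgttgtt
F3H: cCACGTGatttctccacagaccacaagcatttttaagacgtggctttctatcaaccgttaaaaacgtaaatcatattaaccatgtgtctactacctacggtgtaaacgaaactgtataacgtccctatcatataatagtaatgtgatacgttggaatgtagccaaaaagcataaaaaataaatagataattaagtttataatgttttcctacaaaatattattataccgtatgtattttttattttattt
DFR: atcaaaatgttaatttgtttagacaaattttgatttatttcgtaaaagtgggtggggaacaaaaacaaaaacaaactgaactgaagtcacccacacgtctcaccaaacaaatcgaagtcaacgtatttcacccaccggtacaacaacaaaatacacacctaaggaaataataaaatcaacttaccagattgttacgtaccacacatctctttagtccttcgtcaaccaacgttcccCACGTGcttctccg
MYB12: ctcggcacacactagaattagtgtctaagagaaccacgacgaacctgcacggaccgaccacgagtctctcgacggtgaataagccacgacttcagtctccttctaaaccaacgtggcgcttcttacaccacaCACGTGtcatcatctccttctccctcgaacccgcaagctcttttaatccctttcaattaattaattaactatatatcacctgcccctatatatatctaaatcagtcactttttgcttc
LDOX: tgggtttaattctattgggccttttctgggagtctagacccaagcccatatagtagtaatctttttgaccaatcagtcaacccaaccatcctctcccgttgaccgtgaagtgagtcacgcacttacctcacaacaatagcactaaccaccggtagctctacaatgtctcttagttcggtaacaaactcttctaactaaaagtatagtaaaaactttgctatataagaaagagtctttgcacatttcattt
FLS1: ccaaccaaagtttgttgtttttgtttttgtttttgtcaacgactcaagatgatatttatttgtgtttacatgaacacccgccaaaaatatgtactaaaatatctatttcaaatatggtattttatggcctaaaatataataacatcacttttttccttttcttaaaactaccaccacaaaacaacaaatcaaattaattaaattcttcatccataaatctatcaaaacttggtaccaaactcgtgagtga
The G-box was found in 4 of the 10 windows and in 6.49% of 27443 windows of protein-coding genes. It lay 233 to 228 bases upstream of the start in CHS, 249 to 244 in F3H, 14 to 9 in DFR and 118 to 113 in MYB12. The AC elements, searched on both strands as the word ACCTACC, with a variant spelled ACCAACC and another variant spelled ACCTAAC, were in none of the 10 windows and in 6.12% of all windows. These are matches of letters within a short window, and a gene without a match can carry the motif elsewhere. Of the 4 genes with a G-box, CHS, F3H and DFR shared 1 high library, as the next paragraphs show, and MYB12 did not share it. LDOX, F3'H and CHI had the same high library without a G-box in the window.

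The early enzyme genes were highest in WT replicate 1, and the other WT library was close to the mutant. CHS (AT5G13930) was the most abundant member by RPKM, the number of reads per kilobase of exon and per 1000000 gene reads. WT replicate 1 held 7723 of its exon reads and WT replicate 2 held 2559, against 2818 in mol1-1 replicate 1 and 3034 in replicate 2. In the same order these gave 165.4, 60.2, 50.2 and 70.1 RPKM. The level in WT replicate 1 was thus 2.75 times that in WT replicate 2, and WT replicate 2 lay between the mutant libraries. In bulk tissue such as this, fewer cells of a type and less RNA per cell cannot be told apart.

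CHI (AT3G55120) had 382 and 160 exon reads in WT and 186 and 214 in mol1-1. Its levels were 13.1 and 6.04 RPKM in WT against 5.31 and 7.93 in mol1-1. The order of the libraries was that of CHS at a far lower level, with CHS over CHI at 12.6 in WT replicate 1 and from 8.84 to 9.98 in the other libraries. F3H (AT3G51240) had 809 and 246 exon reads in WT and 367 and 281 in mol1-1. Its levels were 17.1 and 5.72 RPKM in WT against 6.46 and 6.42 in mol1-1. WT replicate 1 stood alone, and the other 3 libraries were within a narrow range.

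F3H also differed from the other members in how its reads were assigned. Unique reads made up 9.26% to 14.6% of its exon reads, against 92.8% to 94.9% for LDOX and 100% for each of the other 8 members. In the TAIR10.1 annotation F3H spans 19025192 to 19026872 on the plus strand of chromosome 3, and the long non-coding RNA AT3G51238 spans 19025110 to 19026779 on the minus strand, noted there as a natural antisense transcript. The deposited tables list AT3G51238 with no annotated transcript and 5, 3, 11 and 4 gene reads, none of them unique. Without stated strand use, reads of F3H and of its antisense partner cannot be told apart. Unique exon reads of F3H numbered 112 and 32 in WT and 34 and 41 in mol1-1, again with WT replicate 1 alone at the top.

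F3'H (AT5G07990), the hydroxylase that sets the pattern of hydroxyl groups on the flavonoid B-ring, was the enzyme gene whose groups did not overlap. It had 814 and 266 exon reads in WT and 206 and 192 in mol1-1. The levels were 14.2 and 5.09 RPKM in WT against 2.98 and 3.60 in mol1-1. Both mutant libraries were below both WT libraries, although the gap from WT replicate 2 down to the nearest mutant library was smaller than the gap between the WT libraries.

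At the branch point, WT replicate 1 was the highest library for the anthocyanin genes and not for FLS1; no test was made of that difference. FLS1 (AT5G08640), the flavonol arm, had 74 and 58 exon reads in WT and 79 and 86 in mol1-1, or 1.58 and 1.36 RPKM against 1.40 and 1.98. Its highest library was mol1-1 replicate 2, its highest value was 1.46 times its lowest, and WT replicate 1 did not stand out. DFR (AT5G42800), the first enzyme of the anthocyanin arm, had 3226 and 892 exon reads in WT and 742 and 1265 in mol1-1. The levels were 75.8 and 23.0 RPKM in WT against 14.5 and 32.1 in mol1-1. WT replicate 1 was highest, and WT replicate 2 fell between the mutant libraries.

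LDOX (AT4G22880), the next anthocyanin enzyme, varied most of all members. It had 2790 and 620 exon reads in WT and 376 and 783 in mol1-1, which is 70.9 and 17.3 RPKM against 7.94 and 21.5. The highest library was 8.92 times the lowest, and the lowest was mol1-1 replicate 1 for LDOX as for CHS, CHI, F3'H and DFR. The mutant libraries themselves differed by 2.70 times for LDOX and 2.21 times for DFR. The ratio of DFR to FLS1 in RPKM, a within-library comparison of the arms, was 48.0 and 16.9 in WT and 10.3 and 16.2 in mol1-1. That ratio was high in WT replicate 1 alone. The ratio of CHS, upstream of the branch, to FLS1 was highest there too. It was 104.6 and 44.2 in WT and 35.7 and 35.4 in mol1-1. A high ratio to FLS1 was thus not particular to the anthocyanin arm. DFR over CHS was 0.459 and 0.383 in WT and 0.289 and 0.458 in mol1-1. LDOX over CHS was 0.429 and 0.287 against 0.158 and 0.306. No test was made of these ratios.

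Of the 3 MYB regulators, only PAP1 was highest in WT replicate 1, as 6 of the enzyme genes were. Its lead was smaller than theirs, at 1.20 times the next library by RPKM. PAP1 (AT1G56650), the anthocyanin activator, had 340 and 177 exon reads in WT and 341 and 223 in mol1-1. Its levels were 11.9 and 6.79 RPKM in WT against 9.90 and 8.40 in mol1-1. The mutant lay within the range of WT, and the highest library was 1.75 times the lowest. MYB12 (AT2G47460), a flavonol activator, had 28 and 27 exon reads in WT and 26 and 7 in mol1-1, or 0.615 and 0.652 RPKM against 0.475 and 0.166. Both WT libraries were above both mutant libraries, but mol1-1 replicate 1 was close to WT and the reads were few. MYB111 (AT5G49330), its close relative, had 8 and 15 exon reads in WT and 14 and 4 in mol1-1, with 0.195 and 0.402 RPKM against 0.284 and 0.105. WT and mutant overlapped for MYB111. By mean RPKM the order of the members was CHS, DFR, LDOX, PAP1, F3H, CHI, F3'H, FLS1, MYB12 and MYB111, and each neighbouring pair in that order overlapped in range over the libraries except F3'H with FLS1 and FLS1 with MYB12.

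**Figure D1:**
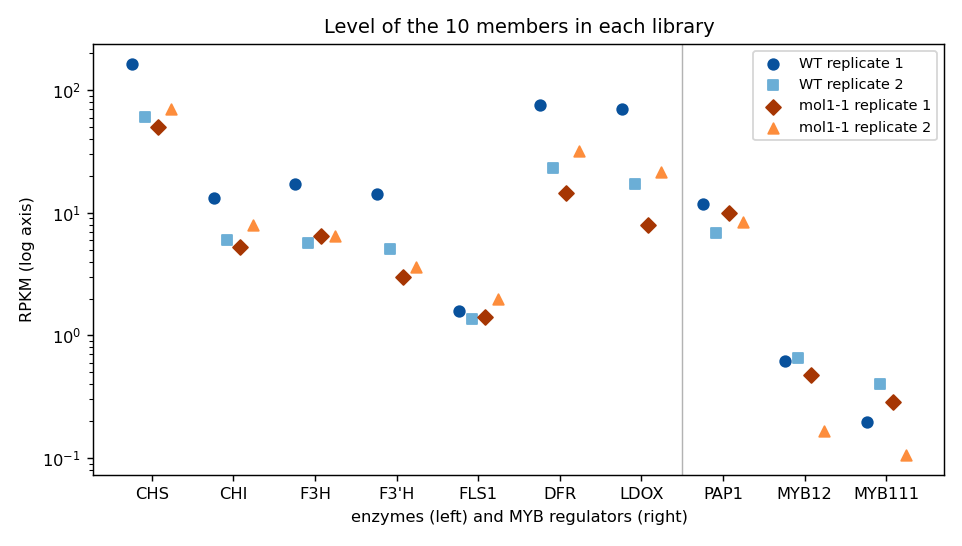
RPKM of the 10 members (log axis) in the 4 libraries, 1 point per library, with enzymes left of the line and MYB regulators right of it. WT replicate 1 is the highest point for CHS, CHI, F3H, F3'H, DFR, LDOX and PAP1, and the FLS1 points lie between 1.36 and 1.98 RPKM.

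Few reads of the enzyme genes lay in introns. Reads across exon-exon junctions were 18.8% of exon reads for DFR, 15.3% for CHI and 3.24% for CHS, which has 2 exons. Intron reads summed over the 4 libraries numbered 0 for CHS, 18 for DFR and 57 for LDOX, against 16134, 6125 and 4569 exon reads.

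No member passed the test between the genotypes. In edgeR's quasi-likelihood test over 19024 genes with an adjusted p of 0.05, 0 of the 10 members were called, while 0.0105% of all tested genes were called lower in mol1-1, 0.189% higher and 0.2% in either direction. At an unadjusted p of 0.05, 1 member was below the threshold (F3'H), against 5.94% of all genes. With limma-voom no member was called. With DESeq2 1 was (F3'H), where 0.121% of 23068 genes with a fold change were called lower and 1.22% in either direction. That total keeps any gene to which DESeq2 gave no adjusted p. With no filter on low counts 0 members were called (0.0564% of genes lower, 0.611% in all), and with the replicate number as a block 0 (0.0473% and 0.715%). With the numbers crossed, a fit chosen after seeing the data, 2 were (0.158% and 1.3%). Leaving out WT replicate 1 gave 0 called members (0.0155% and 0.192%), WT replicate 2 gave 1 (0.154% and 0.456%), mol1-1 replicate 1 gave 0 (0.638% and 2.1%) and mol1-1 replicate 2 gave 0 (0.0721% and 1.09%). Of the 10 log2 fold changes of mol1-1 over WT, 8 were below 0 and 2 above, and their median was -0.83 against -0.01 over all tested genes. Both mutant libraries were below both WT libraries for 2 members, F3'H and MYB12, against 16.8% of all genes, a share close to the background. No member had both mutant libraries above WT, against 16.9%.

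F3'H had the smallest p of the members. In CPM (counts per 1000000 reads of the scaled library), WT stood at 17.6 ± 11.4 and the mutant at 6.2 ± 0.668 (SD, n = 2 each). The log2 fold change was -1.51, with SE 0.45 and an adjusted p of 0.568 by edgeR. It was called lower with DESeq2 (adjusted p 0.0214) and in edgeR without WT replicate 2 (adjusted p 0.0149, log2 fold change -2.03). Without WT replicate 1 its log2 fold change was -0.63. The direction of F3'H held in each of these fits, and its size depended on which WT library was kept.

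For the other enzymes the 95% interval of the fold change included 0. LDOX stood at 55.1 ± 46.5 CPM in WT against 18.8 ± 11.8 in the mutant (SD, n = 2 each), or -1.56 on the log2 scale (SE 0.71, interval -3.31 to 0.19, adjusted p 0.902 by edgeR). DFR stood at 66.9 ± 49.3 against 32.3 ± 16.5 CPM (SD, n = 2 each), or -1.05 (interval -2.50 to 0.40). CHS had 167.8 ± 107.2 against 91.9 ± 19.2 CPM (SD, n = 2 each), with -0.87 (interval -1.97 to 0.23). For each of these the SD within WT was larger than the difference between the genotype means. The log2 fold change of F3H was -0.79 (SE 0.46) with total exon reads and -1.0 with unique exon reads, and that of CHI was -0.50 (SE 0.38). FLS1 gave 0.23 (SE 0.28), with an interval from -0.47 to 0.92. With intervals this wide, the direction of these genes was not resolved.

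The regulators gave no call either. PAP1 stood at 8.54 ± 3.09 CPM in WT against 8.61 ± 1.22 in the mutant (SD, n = 2 each), or 0.01 on the log2 scale with an interval from -0.67 to 0.69. Its sign changed with upper-quartile or no scaling. MYB12 had a log2 fold change of -0.90 (SE 0.57), which was -1.92 without mol1-1 replicate 1 and -0.36 without mol1-1 replicate 2. MYB111 had -0.52 (SE 0.71). Both were under 1 CPM in every library.

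The negative median of the members rested on WT replicate 1. Without that library the median log2 fold change of the 10 members was -0.0028, with 5 above 0 and 5 below, and without WT replicate 2 it was -1.13. CHS went from -0.87 to -0.0073, DFR to 0.0017 and LDOX to -0.25 without WT replicate 1. CHI (0.12) and F3H (0.17) then had the opposite sign. That library also held the most reads of 3 floral organ markers, with a summed level of 1.36 CPM against 0.108 to 0.278 in the others, and their part in the flavonoid values was not tested. Of 8 epidermal markers PDF1 was highest there, at 96 reads against 6 or 7, and the 7 tested ones were not. The sum of all 8 was 1155 CPM there and 1243 in WT replicate 2. The median was -0.76 without mol1-1 replicate 1 and -0.77 without mol1-1 replicate 2.

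**Figure D2:**
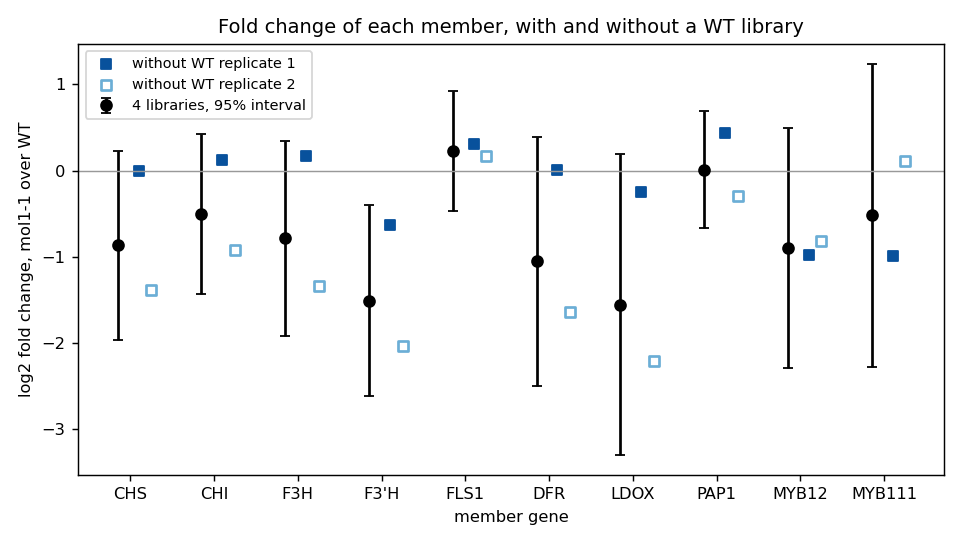
Log2 fold change of mol1-1 over WT for the 10 members (y axis), with black points for the fit of 4 libraries, bars for its 95% interval, filled squares for the fit without WT replicate 1 and open squares for the fit without WT replicate 2. The filled squares of CHS, CHI, F3H and DFR lie between -0.0073 and 0.17, and the interval of F3'H alone stays below 0.

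A lead of WT replicate 1 over the other libraries was rare among all genes. In 5 of the 10 members (CHS, F3H, F3'H, DFR and LDOX) its CPM was at least 2 times that of each other library, against 0.526% of all tested genes, or 100 genes. WT replicate 1 was the highest library for 7 members and for 24.7% of all genes. The same 2-fold lead was held by WT replicate 2 for 6 genes, by mol1-1 replicate 1 for 66 and by mol1-1 replicate 2 for 102. A comparison of single libraries has no replicate, and no test was made of it. The members were chosen with earlier results of these data known, so the shares of all genes beside them are a description only.

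Other genes of the pathway were taken from lists by locus. In the list of decoration and transport, 14 of 18 genes were tested and none was called. All 14 log2 fold changes were below 0 (9931 of 19024 among all tested genes), with a median of -0.45. For 12 of the 14 the highest library was WT replicate 1, against 24.7% of all genes. UGT79B1, which adds xylose to anthocyanins, had 21.1 and 6.43 CPM in WT and 3.34 and 4.62 in mol1-1 (log2 fold change -1.80, SE 0.55, adjusted p 0.591 by edgeR). AT4G14090, annotated as an anthocyanidin 5-O-glucosyltransferase, had 41.9 and 15.2 CPM in WT and 9.20 and 14.2 in mol1-1. Both mutant libraries were below both WT libraries for 7 of the 14 tested genes and for 16.8% of all genes. UGT79B1 and AT4G14090, named for a small p in the list, were among the 7, with the larger step inside WT. UGT79B1 was called lower with DESeq2 (adjusted p 0.0157), and both were called lower in edgeR without WT replicate 2 (adjusted p 0.0140 and 0.0389). Without WT replicate 1 their log2 fold changes were -0.70 and -0.39, against -1.80 and -1.29 with all 4 libraries. UGT78D2, which glucosylates both flavonols and anthocyanidins, had 74.1 and 51.5 CPM against 44.4 and 42.6. UGT78D1, which adds rhamnose to flavonols, had 107.0 and 94.5 CPM against 90.4 and 88.3. Its mutant libraries were also both below WT, by a log2 fold change of -0.17.

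Among the further core enzymes 3 of 7 genes were tested and none was called, with a median of -0.87. CHIL, a chalcone isomerase-like protein that aids CHS, had 31.8 and 15.7 CPM in WT and 12.6 and 13.4 in mol1-1 (adjusted p 0.766 by edgeR). FLS2, a relative of FLS1, had 123.3 and 102.8 RPKM in WT against 99.3 and 85.2 in mol1-1, while FLS1 itself lay between 1.36 and 1.98 RPKM. FLS3 stayed under 1 CPM. BAN, the enzyme of the proanthocyanidin arm known from the seed coat, had 5, 1, 0 and 1 reads and was not tested.

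Of the 12 activators 9 were tested and none was called. All 9 log2 fold changes were below 0 (9931 of 19024 among all tested genes), with a median of -0.47. For 8 of the 9 the highest library was WT replicate 1, against 24.7% of all genes. TT8, the bHLH partner of the anthocyanin MYBs, had 5.77 and 2.59 CPM in WT and 1.11 and 1.56 in mol1-1 (log2 fold change -1.65, SE 0.45, adjusted p 0.489 by edgeR). MYB114, a relative of PAP1, had 9.84 and 5.96 CPM against 3.22 and 3.06 (-1.33, SE 0.28, adjusted p 0.295), and it was called lower with DESeq2 (adjusted p 0.0175). PAP2 had 1.86 and 1.51 CPM against 0.834 and 0.556. These 3 genes were named for the smallest p of the list. In each of them both mutant libraries were below both WT libraries, as in 4 of the 9 tested activators and 16.8% of all genes. TT8, MYB114 and PAP2 had log2 fold changes of -0.96, -0.93 and -1.11 without WT replicate 1. PAP1 itself overlapped between the genotypes, as did MYB113 of this list, with 10.6 and 2.12 CPM in WT against 3.47 and 1.56 in mol1-1. MYB11, the third flavonol MYB beside MYB12 and MYB111, had 0 reads in each library.

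The list of repressors held the single pathway gene that was called. KFB20 (AT1G80440), a kelch F-box protein known to mark phenylalanine ammonia-lyase for degradation and also known as a regulator of cytokinin response, rose in mol1-1. WT stood at 29.6 and 36.7 CPM, the mutant at 122.6 and 114.9, a rise of 1.84 on the log2 scale (SE 0.16, adjusted p of 0.0341 by edgeR). Without WT replicate 1 the adjusted p was 0.0565 and the log2 fold change 1.69. Of the 15 tested repressors 1 was called, against 0.2% of all genes. Their log2 fold changes lay above 0 for 9 and below 0 for 6. Both mutant libraries were above both WT libraries for 7 (16.9% of all genes) and below for 4 (16.8%), CPC, TRY, ETC1 and MYB7. KFB50 and KFB01, of the same family, had 68.3 and 94.6 against 166.0 and 152.0 CPM, and 23.4 and 33.3 against 46.8 and 58.6 CPM. Their adjusted p was 0.242 and 0.356 with edgeR, and 0.0011 and 0.0241 with DESeq2. MYBL2, a MYB repressor of anthocyanin genes, gave 11.7 and 7.76 CPM for WT, with 12.4 and 12.6 for the mutant.

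WT replicate 1 was the highest library for 1 gene of phenylpropanoid entry, the route that supplies the precursors. Of 10 genes of phenylpropanoid entry 10 were tested, none was called, and the median log2 fold change was -0.17. PAL1, the gene for the first phenylpropanoid enzyme, had 2324 and 2895 CPM in WT and 2959 and 1541 in mol1-1, so that mol1-1 replicate 2 was the low library. 4CL3, the ligase isoform tied to flavonoids, was that gene, at 1.83 and 0.97 CPM in WT against 0.222 and 0.903. ATR2, a reductase that serves the P450 enzymes of this route, and 4CL2 had log2 fold changes of -0.18 and -0.31. The list of light regulators had 14 of 16 tested, none called and a median of 0.03. HY5, the bZIP factor that drives light-induced flavonoid genes, had 7.89 and 6.39 CPM in WT and 6.28 and 6.19 in mol1-1. The blue light receptor CRY1 and the phytochrome-interacting factor PIF3 had log2 fold changes of 0.34 (SE 0.15) and 0.29 (SE 0.14).

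In the sinapate branch, which shares precursors with flavonoids, 5 of 5 genes were tested and none was called (median -0.45). UGT84A2, a glucosyltransferase of sinapate, had 11.4 and 5.10 CPM in WT and 3.11 and 3.16 in mol1-1, with WT replicate 1 again the highest. Its log2 fold change was -1.39 (adjusted p 0.505 by edgeR), -1.84 without WT replicate 2 (adjusted p 0.0378) and -0.71 without WT replicate 1. REF1 had 54.8 and 59.2 CPM against 46.8 and 36.8. FAH1 had 654.8 and 681.6 CPM in WT and 640.3 and 236.6 in mol1-1, where mol1-1 replicate 2 alone was low. Over the 83 genes of these lists 70 were tested, 1 was called higher (0.189% of all genes) and 0 lower (0.0105%). Both mutant libraries were below both WT libraries for 22 of the 70 (16.8% of all genes) and above for 11 (16.9%).

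**Figure D3:**
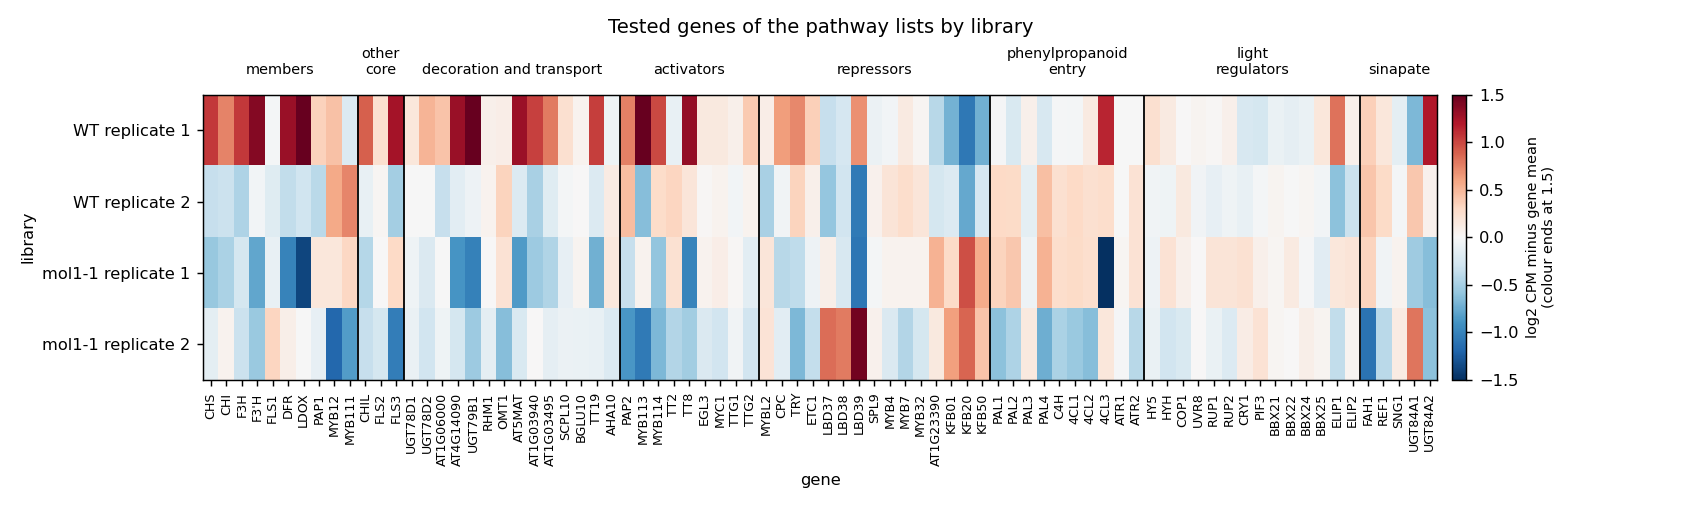
Log2 CPM of each tested pathway gene minus its mean over the 4 libraries (colour, red above and blue below the mean), with libraries as rows and genes as columns, grouped by list. Red cells of WT replicate 1 run through the enzymes except FLS1 and through UGT79B1, TT19, MYB113 and TT8, while KFB20 is blue in both WT libraries and red in both mutant libraries.

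The 6 genes whose profile was nearest to that of CHS were found by the root mean square distance of log2 CPM, centred on the mean of each gene, over 4 libraries and 17739 genes. With 4 libraries such a likeness is a description only. They were AT1G62333 (distance 0.039, an uncharacterized protein), AT2G34810 (0.097, an FAD-binding Berberine family protein), TT19 (0.10), AT1G03940 (0.10, an HXXXD-type acyl-transferase), AT3G32980 (0.12, a peroxidase family protein) and HPL1 (0.12, a hydroperoxide lyase that is truncated in Col-0 per the annotation). TT19, a glutathione transferase needed to bring anthocyanins to the vacuole, had 54.9 and 23.2 CPM in WT and 16.2 and 24.7 in mol1-1. Among the members, F3H and CHI were nearest to CHS, both at a distance of 0.19 or 0.20, DFR followed at 0.27, and FLS1 (0.64), MYB12 (0.84) and MYB111 (1.00) were far.

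Markers of other tissues were also read in each library. Of 3 floral organ markers analysed none passed the filter on low counts. PI had 24 and 2 reads in WT and 8 and 3 in mol1-1, AG 15 and 1 against 1 and 0, and AP1 4 and 0 against 1 and 2. The summed level of the 3 genes was 1.36 CPM in WT replicate 1 and from 0.108 to 0.278 CPM in the other libraries. PDF1, 1 of the 8 epidermal markers, had 96 and 6 reads in WT and 7 and 6 in mol1-1, while none of the 7 tested epidermal markers was highest in WT replicate 1. WT replicate 1 thus had the most reads of each of the 3 floral markers and of PDF1. It was also the highest library by RPKM for CHS, CHI, F3H, F3'H, DFR, LDOX and PAP1. A link between these markers and the flavonoid values was not tested.

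**Figure D4:**
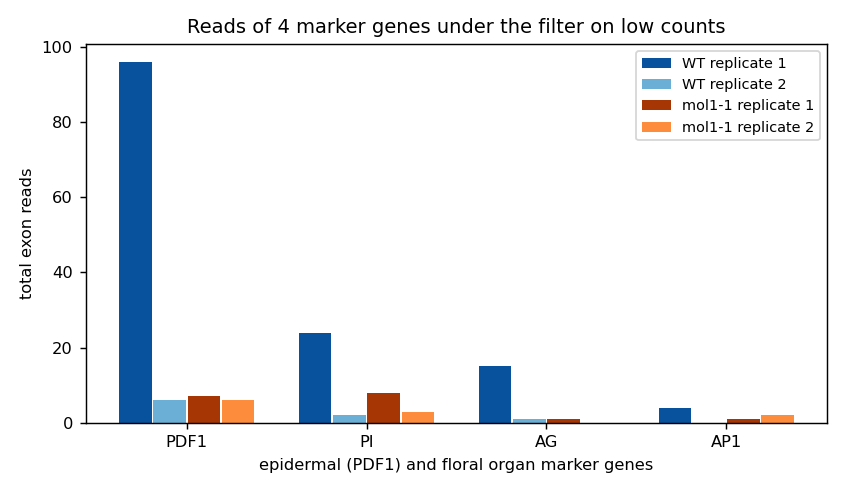
Total exon reads (bars, 1 per library) of the epidermal gene PDF1 and the floral organ genes PI, AG and AP1, which are too low for the filter. The WT replicate 1 bars are the tallest, at 96 reads for PDF1 and 24 for PI.

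Of the remaining marker sums, only that of the guard cell markers was highest in WT replicate 1. By single genes, 1 of the 3 tested guard cell markers was highest in that library. The 8 epidermal markers summed to 1155 and 1243 CPM in WT and to 1113 and 785.6 in mol1-1, with 7 tested and none highest in WT replicate 1. Photosynthetic markers summed to 4871 and 4782 against 4801 and 6386 CPM, xylem markers to 6477 and 8891 against 9229 and 5393, phloem markers to 457.0 and 590.3 against 572.7 and 441.6, and guard cell markers to 44.7 and 42.9 against 41.7 and 23.0. Xylem, phloem and photosynthetic markers were all detected in each library labelled as stem base. The WT libraries held 30794836 and 28017346 exon reads at named loci, and the mutant libraries 37059413 and 28570901. The part of library depth and of these markers in the flavonoid values was not tested.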

How the data were processed

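Polyadenylated RNA of the stem base was sequenced in 2 libraries per genotype. The authors deposited 1 table per library with read counts per locus and RPKM. The submitters' processing notes name build TAIR10. For aligner, counter and strand use the entry is: not given in the sources used here. Recomputing the deposited RPKM gave the exon reads divided by exon length in kilobases and by gene reads in units of 1000000. The 5 rows without a locus name (0.0586% to 0.0864% of exon reads) were left out. 

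Genotypes were compared on total exon reads by edgeR 4.0.16 under R 4.3.3 (filterByExpr, TMM, quasi-likelihood test, Benjamini-Hochberg adjustment over all 19024 tested genes, threshold 0.05). SEs are the log2 fold change divided by the square root of F. Named genes are the members, the called genes and the 3 with the smallest p in each list, and the 6 with a mean of at least 1 CPM nearest to CHS (log2 CPM, prior count 2). Genes outside that rule were named after their values were seen. Alternatives were DESeq2 1.42.0, limma-voom (limma 3.58.1), other scalings, filters and read classes, limma on log2 RPKM, the replicate number as a block and each library left out. The test was checked on simulated counts. Members and lists were chosen with earlier results of these data known. 1 listed floral marker was not analysed here.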

Additional observations from a re-analysis of the deposited data

How the results depend on the processing

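The count of called members was 0 in the main test and was 1 with DESeq2 and 2 with a crossed block chosen after seeing the data, and from 0 to 1 with 1 library left out. The members' median log2 fold change was below 0 under all 17 alternatives, from -1.13 to -0.0028 with 1 library left out. The value of -0.0028, without WT replicate 1, showed no direction, so the sign did not hold apart from that library. The count of called genes, 38, was 281 with DESeq2, 141 with no filter, and 37 to 409 with 1 library left out. The labels do not say that replicate numbers pair, and the correlation between libraries of equal number, after centring on each genotype, was -0.238. The labels number the mutant libraries 1 and 2, while the deposited tables of the same libraries are named 2 and 3, so a shared number may not mean a shared origin in either block fit. With a replicate block 136 genes and 0 members passed, and with the crossed block 248 genes and 2 members.

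Of 166 member values under the alternatives, 9 changed sign and 4 gained a call. PAP1 was -0.0097 with upper-quartile and -0.030 with no scaling. With 1 library left out the log2 fold change ran from -0.92 to 0.12 for CHI, -1.34 to 0.17 for F3H, -0.0097 to 0.42 for FLS1, -1.70 to 0.0017 for DFR, -0.30 to 0.43 for PAP1 and -1.48 to 0.12 for MYB111. Without a change of sign it ran from -1.39 to -0.0073 for CHS, -2.03 to -0.63 for F3'H, -2.40 to -0.25 for LDOX and -1.92 to -0.36 for MYB12. Among other genes it ran from -0.84 to 0.063 for 4CL2, -0.54 to 0.10 for ATR2, -2.16 to 0.40 for FLS3, -1.43 to 0.028 for AT1G62333, -1.26 to 0.23 for AT1G03940, -1.33 to 0.10 for AT3G32980 and -1.35 to 0.28 for HPL1. KFB20 ran from 1.69 to 2.02. With a lone library, its spread is assumed to be that of the other genotype. The cause was not tested.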
